A study of Mus musculus with 4 samples.

Results

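Cells sense oxygen through a small set of genes that was examined here in MSCs of adult bone marrow. The set holds the 3 alpha subunits of the hypoxia-inducible factors (HIFs), *Hif1a*, *Epas1* (the gene of HIF-2alpha) and *Hif3a*, their shared beta subunit *Arnt*, the prolyl hydroxylases *Egln1*, *Egln2* and *Egln3* (PHD2, PHD1 and PHD3), the asparaginyl hydroxylase *Hif1an* (FIH) and *Vhl*, the substrate receptor of a ubiquitin ligase. These genes were chosen by symbol, and all 9 were found once each among the 56980 genes of the count table. The 4 libraries form a single group of wild-type MSCs from the marrow of C57BL/6J male mice, an in-house line inbred for 30 years, aged 14 weeks. Each library was made from 100 cells of 1 mouse, sorted as negative for CD45, Ter119, CD31 and Sca1 and positive for CD51 and PDGFRa, after enzymatic digestion of the flushed femurs. There is no treated or hypoxic group, so the comparisons are between genes within a mouse and between mice.

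HIFs are transcription factors made of an alpha and a beta subunit. With oxygen present, the prolyl hydroxylases modify the alpha subunit, which VHL then marks for destruction, and FIH blocks its contact with coactivators. When oxygen falls, the alpha subunit is stabilised, pairs with ARNT and switches on genes for glycolysis, vessel growth and collagen processing. Control acts mainly on the protein, so the mRNA levels below do not give HIF activity. Bone marrow is a tissue of low oxygen, and *Egln3*, *Egln1* and *Hif3a* are themselves known HIF target genes that feed back on the response.

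Libraries held between 22738604 and 43545349 counts on genes. The library of mouse 2 had counts on 16109 genes, fewer than those of mice 1, 3 and 4 (18683, 18907 and 18802). Levels are given in TPM, counts divided by the length of the merged exons of a gene and scaled to a sum of 1000000 in each library. Expressed here means a median above 1 TPM among the 4 mice. By that rule 7 of the 9 genes were expressed, or 77.8%, against 22.9% of all 52125 genes with a known length and 44.2% of the protein-coding ones. *Epas1*, *Egln2*, *Vhl*, *Hif1a*, *Egln1* and *Arnt* were above 1 TPM in every mouse, that is 6 of 9 or 66.7% against a background of 15.4% of all genes and 30.1% of protein-coding genes. *Hif1an* passed by its median alone, and *Hif3a* and *Egln3* did not pass. In bulk libraries, fewer cells that express a gene and less RNA per cell cannot be told apart.

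**Figure D1:**
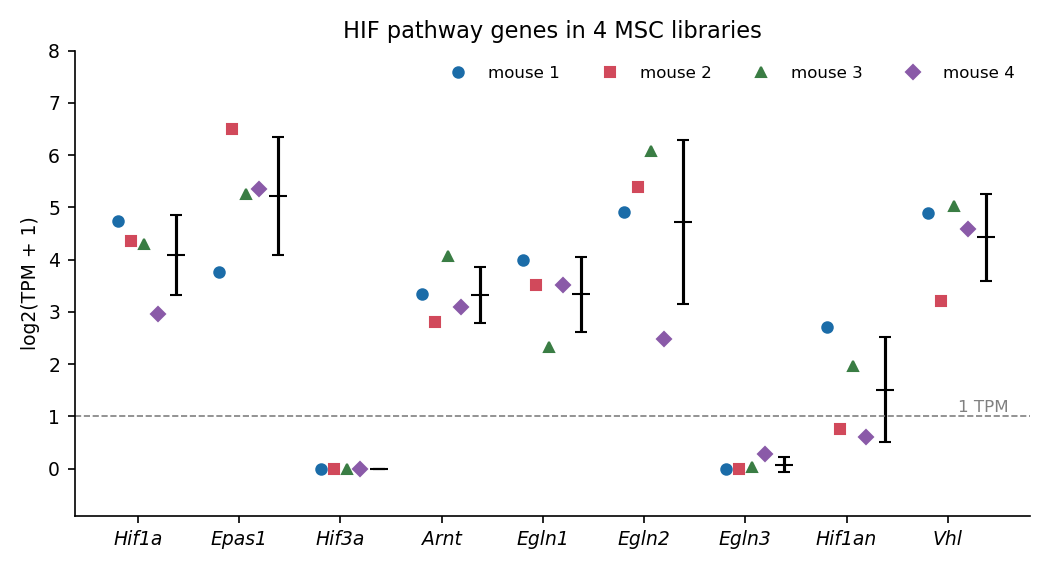
Level of each gene as log2(TPM + 1) on the vertical axis, with 1 symbol per mouse and the mean ± SD of the 4 mice as a black bar; the dashed line marks 1 TPM. *Hif3a* sits at 0 in every mouse, *Egln3* stays below 1 TPM in every mouse, and *Egln2* and *Epas1* spread most among the genes above the line in all mice.

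The markers of stromal niche cells were present. All 7 niche-cell markers on the list (*Lepr*, *Cxcl12*, *Pdgfra*, *Itgav*, *Foxc1*, *Ebf3* and *Prrx1*) were above 1 TPM in every mouse, with sums between 1109 and 4594 TPM. The 4 osteoblast markers were also high, with sums between 77792 and 168024 TPM, of which most was *Bglap*. Of the 5 endothelial markers *Cdh5* and *Kdr* had no counts, and the list summed to between 0.0465 and 1.28 TPM. Of the 4 macrophage markers *Adgre1*, *Csf1r* and *C1qa* had no counts, and *Cd68* had 11, 0, 144 and 5 counts, or 6.63 TPM in mouse 3. The 4 erythroid markers summed to between 21.1 TPM in mouse 2 and 3821 TPM in mouse 1, although the sort excluded Ter119. The 4 neutrophil markers summed to between 3.22 and 30.6 TPM. Of these *Ngp* had 0 counts in every library, and *Elane* had 261 counts in mouse 1 and 0 in the others. The 3 chondrocyte markers summed to 6.87, 0.213, 12.2 and 1.25 TPM in mice 1 to 4, and the 4 adipocyte markers to between 199 and 962 TPM. *Ptprc*, the gene of CD45, had 2, 2, 0 and 50 counts, although the sort excluded CD45. *Ly6a*, the gene of the Sca1 antigen used for exclusion, had 8.95 TPM in mouse 2 and 11.6 TPM in mouse 4, with 0.0472 TPM in mouse 1 and 0 in mouse 3.

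The alpha subunits were represented by *Hif1a* and *Epas1*, and *Hif3a* was not detected. *Hif1a*, the broadly expressed alpha subunit, had 2683, 1273, 1896 and 416 counts in mice 1, 2, 3 and 4. Per length these are 25.9, 19.4, 18.6 and 6.83 TPM, a mean of 17.7 ± 7.93 (SD, n = 4), and the level was highest in mouse 1 and lowest in mouse 4. *Epas1*, the alpha subunit best known from endothelial and interstitial cells, had 1236, 5611, 3575 and 2317 counts, or 12.6, 90.2, 37.0 and 40.1 TPM (45.0 ± 32.6 TPM, SD, n = 4), with a mean of 29.9 TPM without mouse 2. Mouse 2 was highest and mouse 1 lowest, a ratio of 7.18 between them, against 3.79 between the highest and the lowest mouse for *Hif1a*. The median of *Epas1* exceeded 95.8% of the medians of all genes with a known length, and the median of *Hif1a* exceeded 93.0% of them. These ranks include genes not expressed, since 51% of all these genes had no counts in any library and 22.9% were expressed. The endothelial markers, at no more than 1.28 TPM in sum, were also highest in mouse 2, where *Tek* made up 1.11 TPM of them. They were next highest in mouse 4, as *Epas1* was, with 1.10 TPM, and had 0.119 and 0.0465 TPM in mice 1 and 3. Their part in the *Epas1* level was not tested.

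*Hif3a*, whose shorter protein forms restrain the other alpha subunits, had 0 counts in all 4 libraries. Among protein-coding genes 29.4% had no counts in any library. A limit of 3 counts per library corresponds to between 0.0254 and 0.0433 TPM for this gene. Against that limit *Hif1a* was at least 158-fold higher and *Epas1* at least 495-fold higher in every mouse. Lower levels of *Hif3a* were not detectable at this depth, and the limit covers counting error only.

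*Epas1* was higher than *Hif1a* in 3 of 4 mice, by 2.16, 0.95 and 2.39 in log2(TPM + 1) in mice 2, 3 and 4, and lower by 0.99 in mouse 1. The mean difference was 1.13 ± 1.55 (SD, n = 4), smaller than the spread between mice, and the exact two-sided sign-flip permutation test gave p = 0.375 (0.375 after Benjamini-Hochberg adjustment over 6 pairs of genes). With 4 mice this test cannot go below 0.125, so none of the 6 pairs could pass 0.05. Without mouse 1 the mean difference was 1.84, and without mouse 4 it was 0.71. As a share of the summed TPM of the 3 alpha subunits, *Hif1a* took 67.3% in mouse 1, 17.7% in mouse 2, 33.5% in mouse 3 and 14.5% in mouse 4. The majority alpha transcript was thus *Hif1a* in 1 mouse and *Epas1* in 3. The mean share of *Hif1a*, 33.3% ± 24.2 (SD, n = 4), was 21.9% without mouse 1.

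**Figure D2:**
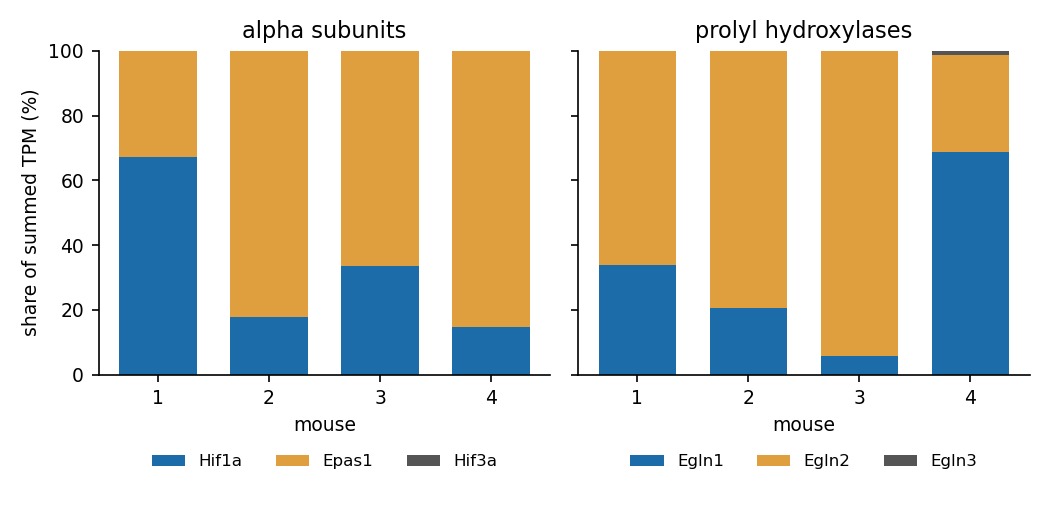
Stacked bars give the share, in percent, of each gene in the summed TPM of its family in each mouse, with the alpha subunits on the left and the prolyl hydroxylases on the right. Mouse 1 has a majority of *Hif1a* (67.3%) where the others have a majority of *Epas1*, and mouse 4 has a majority of *Egln1* where the others have a majority of *Egln2*.

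The listed niche-cell genes did not follow 1 order of mice. *Epas1* was highest in mouse 2, followed by mice 4, 3 and 1, and 3 of the 7 markers had that order. *Lepr*, which encodes the leptin receptor and marks perivascular stromal cells, had 31.9, 120, 44.5 and 64.8 TPM in mice 1 to 4. *Foxc1*, a transcription factor of CXCL12-rich reticular cells, had 16.8, 44.7, 20.6 and 25.3 TPM, and *Ebf3*, another factor of these cells, had 1.03, 27.3, 6.87 and 12.9 TPM. The other 4 markers had other orders. *Cxcl12*, the chemokine that retains blood stem cells, had 983, 4329, 2224 and 1079 TPM, and *Pdgfra*, a receptor used for the sort, 38.4, 48.2, 30.7 and 41.7 TPM, both highest in mouse 2. *Prrx1*, a factor of limb mesenchyme, had 19.4, 10.6, 18.0 and 12.0 TPM, and *Itgav*, the gene of CD51, 18.1, 14.3, 12.9 and 17.5 TPM, both highest in mouse 1, where *Epas1* was lowest. The order of *Epas1* was found in 476 of the 11948 expressed genes, or 3.98%. These markers were set beside *Epas1* after their values were seen, and no test was made. The ratio of *Epas1* to *Lepr* in TPM was between 0.394 and 0.831, and that of *Hif1a* to *Lepr* between 0.105 and 0.811. The part of the number of *Lepr*-expressing cells in the *Epas1* level was not tested.

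**Figure D3:**
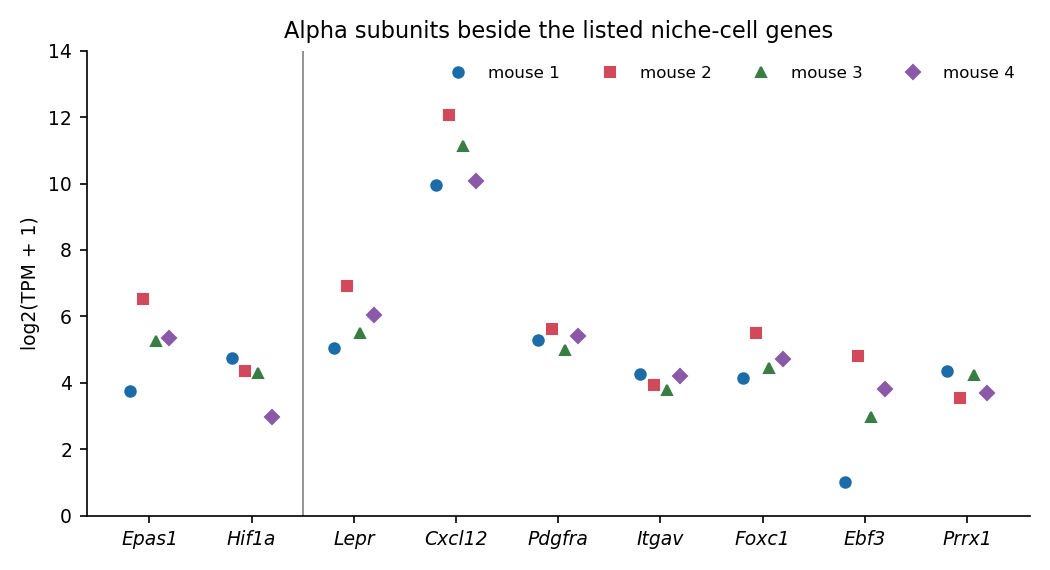
Levels as log2(TPM + 1) on the vertical axis of *Epas1* and *Hif1a*, left of the grey line, and of the 7 listed niche-cell genes, with 1 symbol per mouse. Mouse 2 is highest for *Epas1*, *Lepr*, *Cxcl12*, *Pdgfra*, *Foxc1* and *Ebf3*, and mouse 1 is highest for *Hif1a*, *Itgav* and *Prrx1*.

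*Arnt*, the shared beta subunit of the HIFs, had 1297, 531, 2179 and 621 counts, or 9.21, 5.96, 15.7 and 7.51 TPM (9.61 ± 4.30 TPM, SD, n = 4). It was highest in mouse 3 and lowest in mouse 2, where *Epas1* was highest and the fewest genes had counts. A relation of *Arnt* to *Epas1* was not tested. The summed TPM of the alpha subunits was 4.17, 18.4, 3.53 and 6.25 times that of *Arnt* in mice 1 to 4, above it in every mouse. With the longest transcript as the length, an alternative chosen after seeing the data, the ratio was 2.64, 10.5, 2.08 and 3.54. *Arnt* was lower than *Hif1a* in 3 of 4 mice, by a mean of -0.76 ± 0.83 in log2(TPM + 1), less than 1 SD (exact sign-flip permutation p = 0.25, adjusted p = 0.375). This difference was -0.24 when the longest transcript was taken as the length, since the merged exons of *Arnt* span 8007 bases and its longest transcript 4325. It was -0.50 without mouse 2.

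Other bHLH-PAS proteins that pair with ARNT or could stand in for it mostly stayed under the cutoff. Of the 10 measured genes on that list, 1 was expressed (10%), and 0 were above 1 TPM in every mouse. Among protein-coding genes these shares were 44.2% and 30.1%. The expressed gene was *Arntl*, the clock factor BMAL1, with 0.442 to 13.3 TPM. *Arnt2*, the closest relative of *Arnt*, had 438 counts in mouse 1 and 243 in mouse 3, but 0 and 1 counts in mice 2 and 4. *Arntl2*, the clock factor BMAL2, was found in mice 2 and 3, with 1, 214, 168 and 1 counts. For *Ahr*, the dioxin receptor, mouse 3 gave 190 counts, mouse 1 gave 7 and the others 0. *Npas1* had 0 counts in every library. The coactivators *Crebbp* (8.11 TPM, median) and *Ep300* (1.56 TPM) and the HIF inhibitor *Cited2* (12.8 TPM) were all expressed, and *Crebbp* alone exceeded 1 TPM in every mouse. *Cited2* was lowest in mouse 2 (0.805 TPM) and highest in mouse 4 (32.6 TPM).

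Of the prolyl hydroxylases, *Egln2* and *Egln1* were expressed and *Egln3* was at the limit of detection. *Egln1*, the main enzyme that limits HIF in normal oxygen, had 942, 420, 248 and 388 counts, or 14.9, 10.5, 3.99 and 10.4 TPM (9.96 ± 4.49 TPM, SD, n = 4), and was lowest in mouse 3. *Egln2* had 1431, 1276, 3247 and 132 counts, or 29.0, 41.0, 67.1 and 4.56 TPM (35.4 ± 26.0 TPM, SD, n = 4). It was highest in mouse 3 and lowest in mouse 4, a ratio of 14.7, the widest among the 6 genes above 1 TPM in every mouse. *Egln2* was above *Egln1* in mice 1, 2 and 3 and below it in mouse 4. The mean difference of 1.38 ± 2.00 in log2(TPM + 1) lay within 1 SD of 0 (exact sign-flip permutation p = 0.375, adjusted p = 0.375). It was 2.19 without mouse 4 and 0.58 without mouse 3. *Egln2* made up 66.1%, 79.6%, 94.4% and 30.0% of the summed TPM of the 3 enzymes in mice 1 to 4.

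*Egln3*, a strongly HIF-inducible enzyme, had 0, 0, 1 and 6 counts in mice 1 to 4. The exact 95% Poisson interval was 0 to 3.69 counts in mice 1 and 2, 0.0253 to 5.57 in mouse 3 and 2.20 to 13.1 in mouse 4, where the level was 0.218 TPM. Only the library of mouse 4 exceeded 3 counts. *Egln3* was below *Egln1* in 4 of 4 mice, by a mean of -3.26 ± 0.72 in log2(TPM + 1), and below *Egln2* in 4 of 4 mice, by -4.64 ± 1.70. Both were larger than their SD, at the smallest p that 4 mice allow (exact sign-flip permutation p = 0.125, adjusted p = 0.25 for each). Their size depends on the pseudocount of 1, and with 0.1 they were -6.02 and -7.46.

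The core of the HIF binding site was searched in the promoters. Windows from 250 bases before to 50 bases after the RefSeq start (GRCm38.p6) are printed 5′ to 3′ on the gene's strand for *Hif1a* and the expressed prolyl hydroxylases, and, to set beside them, for *Egln3* and *Hif3a*, which were not expressed. Capitals mark ACGTG and GCGTG on either strand, where CACGTG counts once on each strand and neighbouring matches may run together.
*Hif1a*, chr12:73907617-73907916, plus strand: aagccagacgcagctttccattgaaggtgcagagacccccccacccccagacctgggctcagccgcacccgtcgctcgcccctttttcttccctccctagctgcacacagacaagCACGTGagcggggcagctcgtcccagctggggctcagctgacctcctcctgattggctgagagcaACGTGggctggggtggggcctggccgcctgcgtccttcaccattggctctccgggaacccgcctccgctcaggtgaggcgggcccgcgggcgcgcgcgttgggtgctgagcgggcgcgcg
*Egln1*, chr8:124949205-124949504, minus strand: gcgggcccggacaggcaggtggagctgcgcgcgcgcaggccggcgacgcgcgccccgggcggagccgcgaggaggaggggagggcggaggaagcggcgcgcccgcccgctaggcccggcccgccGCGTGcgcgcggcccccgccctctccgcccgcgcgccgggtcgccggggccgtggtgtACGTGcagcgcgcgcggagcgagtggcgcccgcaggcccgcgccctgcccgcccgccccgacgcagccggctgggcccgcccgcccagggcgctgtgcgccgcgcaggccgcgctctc
*Egln2*, upstream start, chr7:27166753-27167052, minus strand: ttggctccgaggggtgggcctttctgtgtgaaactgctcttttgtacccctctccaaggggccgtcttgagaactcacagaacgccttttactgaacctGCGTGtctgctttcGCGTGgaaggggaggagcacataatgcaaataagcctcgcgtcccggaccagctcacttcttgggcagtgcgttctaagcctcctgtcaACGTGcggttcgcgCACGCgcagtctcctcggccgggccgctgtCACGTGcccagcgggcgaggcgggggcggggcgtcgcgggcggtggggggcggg
*Egln3*, chr12:54203825-54204124, minus strand: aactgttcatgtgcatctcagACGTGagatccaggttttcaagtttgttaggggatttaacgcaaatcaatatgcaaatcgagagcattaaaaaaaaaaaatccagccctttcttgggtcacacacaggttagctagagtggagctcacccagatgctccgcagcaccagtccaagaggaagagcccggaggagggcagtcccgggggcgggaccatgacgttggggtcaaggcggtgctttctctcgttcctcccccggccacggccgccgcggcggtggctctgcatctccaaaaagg
*Hif3a*, chr7:17062378-17062677, minus strand: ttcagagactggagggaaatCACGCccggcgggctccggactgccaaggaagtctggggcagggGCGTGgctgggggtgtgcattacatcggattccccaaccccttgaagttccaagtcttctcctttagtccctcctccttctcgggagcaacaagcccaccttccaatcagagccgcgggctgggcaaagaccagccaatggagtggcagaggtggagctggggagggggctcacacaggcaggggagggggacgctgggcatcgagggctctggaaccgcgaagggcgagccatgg

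Each of these 5 windows holds at least 1 core. The *Egln2* window has 3 matches to ACGTG and 3 to GCGTG, the *Hif1a* window 3 to ACGTG and 0 to GCGTG, the *Egln1* window 1 and 1, the *Egln3* window 1 and 0, and the *Hif3a* window 0 and 2. Of 32851 windows of the same length over all genes, 43.8% hold either core and 19.6% hold ACGTG. Windows of expressed genes hold either core in 62.7% of cases and windows of the others in 36.8%. The promoter table matched every gene of the set but *Epas1*, which is 8 of 9, with 9 windows in all, of which 7 hold either core. The *Arnt* window and the downstream *Egln2* window (chr7:27165679-27165978), not printed, each hold 0 and 1. The windows of *Vhl* and *Hif1an* hold neither. Among the printed windows, the number of CpG dinucleotides was 60 for *Egln1*, 29 for *Egln2* and 25 for *Hif1a*. It was 16 for *Egln3* and 14 for *Hif3a*. In the windows not printed it was 25 for *Vhl*, 19 for *Arnt*, 19 for *Hif1an* and 4 for the downstream *Egln2* window. The median was 21 in windows of expressed genes and 5 in windows of genes that were not expressed. The match is a description of letters and not of binding.

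*Hif1an* encodes FIH, which hydroxylates an asparagine in the transactivation domain of the alpha subunits. It had 642, 51, 331 and 36 counts, or 5.52, 0.694, 2.90 and 0.527 TPM (2.41 ± 2.34 TPM, SD, n = 4). Mice 1 and 3 were above 1 TPM and mice 2 and 4 below it, so the median of 1.80 TPM fell between these pairs. Leaving out mouse 1 or mouse 3 brought the median below 1 TPM, and the mean was 1.37 TPM without mouse 1. *Hif1an* was below *Egln1* in 4 of 4 mice, by a mean of -1.83 ± 1.22 in log2(TPM + 1), more than its SD, again at the smallest p possible (exact sign-flip permutation p = 0.125, adjusted p = 0.25).

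*Vhl* had 1507, 276, 1645 and 709 counts, or 28.6, 8.28, 31.8 and 22.9 TPM (22.9 ± 10.4 TPM, SD, n = 4). Mouse 3 was highest for *Vhl* and mouse 2 lowest, as for *Arnt*. Mouse 2 had the highest *Epas1* but also the fewest genes with counts, and a relation of *Vhl* to *Epas1* was not tested. All 4 other subunits of the VHL ubiquitin ligase on the list were above 1 TPM in every mouse, against 30.1% of protein-coding genes. *Elob* (elongin B) had a median of 513 TPM, *Rbx1*, the RING subunit, 85.3 TPM, *Eloc* (elongin C) 66.3 TPM and *Cul2*, the scaffold, 19.5 TPM. *Elob* varied little, with a coefficient of variation of 15.0%, and was between 439 and 625 TPM. *Vhl* and *Cul2* were therefore the subunits with the lowest medians of the complex.

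**Figure D4:**
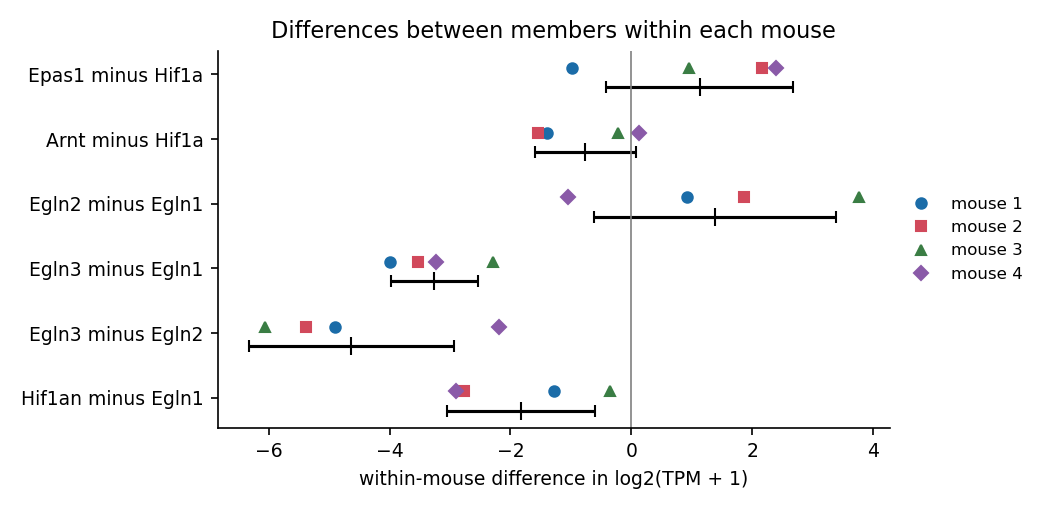
Within-mouse difference in log2(TPM + 1) for the 6 pairs of genes that were tested, with 1 symbol per mouse and the mean ± SD in black below them. *Egln3* minus *Egln1*, *Egln3* minus *Egln2* and *Hif1an* minus *Egln1* lie below 0 in all 4 mice, and the other 3 pairs have at least 1 mouse on each side of 0.

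Ordered by median TPM, the genes ran from *Epas1* (38.6) over *Egln2* (35.0), *Vhl* (25.7), *Hif1a* (19.0), *Egln1* (10.5), *Arnt* (8.36) and *Hif1an* (1.80) to *Egln3* (0.0109) and *Hif3a* (0). Neighbours in this order from *Epas1* to *Arnt* did not differ beyond their spread within mice. *Arnt* was above *Hif1an* in 4 of 4 mice by 1.82 ± 0.80 in log2(TPM + 1), and *Hif1an* above *Egln3* in 4 of 4 mice by 1.43 ± 1.09, both beyond the spread.

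The spread between mice includes the sampling of 100 cells and the amplification of their cDNA, which cannot be told apart from differences between animals here. The coefficient of variation was between 44.8% and 45.5% for *Hif1a*, *Arnt*, *Egln1* and *Vhl*, 72.4% for *Epas1*, 73.4% for *Egln2* and 97.0% for *Hif1an*, and the counting part of it, which leaves those sources out, between 1.81% and 6.22%. For all genes the median was 42.4% at a mean of 10 to 100 TPM and 89.6% at 1 to 10 TPM. *Hif1a* and *Vhl* lay close to the first, and *Epas1* and *Egln2* above it. *Arnt* and *Egln1*, with means of 9.61 and 9.96 TPM, sit just under the border of 10 TPM. They lay below the second median but close to the first. *Hif1an* lay above the second.

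The genes with the profile closest to each of 4 members, by Euclidean distance in log2(TPM + 1) over the 4 libraries, were *Ppp2r5a* (0.25), *Ppil2* (0.30) and *Gstp2* (0.32) for *Hif1a*. For *Epas1* they were the pseudogene *Gm6969* (0.44), the complement gene *C4b* (0.46) and the metallothionein *Mt2* (0.71). For *Egln1* they were *Hdgfl2* (0.31), *Prpf31* (0.40) and *Tial1* (0.41), and for *Vhl* *Frmd6* (0.27), *Pafah1b3* (0.29) and *Cmc1* (0.30). Within a distance of 0.5 there were 15 genes for *Hif1a*, 18 for *Vhl*, 6 for *Egln1* and 2 for *Epas1*.

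Listed HIF target genes were mostly expressed in these cells. Of 35 measured targets 30 were expressed (85.7%, against 22.9% of all genes and 44.2% of protein-coding genes), and 20 were above 1 TPM in every mouse (57.1%, against 15.4% and 30.1%). The median of their median levels was 10.2 TPM. These genes respond to many other signals, and no library without HIF or with another oxygen level was compared. *Lox*, a collagen crosslinking enzyme, had the highest median at 360 TPM, followed by *Ldha*, the lactate dehydrogenase subunit, at 324 TPM and *P4ha1*, a collagen prolyl hydroxylase, at 202 TPM.

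The 5 matrix targets, *Lox*, *P4ha1*, *P4ha2*, *Plod1* and *Plod2*, were above 1 TPM in every mouse and each was highest in mouse 1, the mouse with the highest *Hif1a*. Their summed level was 1202 TPM in mouse 1 and 698, 831 and 736 TPM in mice 2, 3 and 4. *Hif1a* was next highest in mouse 2, where *Lox*, *P4ha1*, *P4ha2* and *Plod1* were lowest and only *Plod2* was next highest too. Among the 4 osteoblast markers, *Sp7* peaked in mouse 1, *Ibsp* and *Alpl* in mouse 3 and *Bglap* in mouse 4. The part of osteoblast content in the levels of the matrix targets was not tested. Of all expressed genes 25.7% were highest in mouse 1, and of the 30 expressed targets 13, or 43.3%. The 4 mitochondrial targets (*Bnip3*, *Bnip3l*, *Higd1a* and *Ndufa4l2*) were also above 1 TPM in every mouse. Each was highest in mouse 1, and they summed to 353 TPM there against 130 to 183 TPM in the others. *Bnip3l* is also known for its role in maturing red cells. The summed erythroid markers were highest in mouse 1 as well, at 3821 TPM against 21.1 to 1336 TPM, and their part was not tested.

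Of the 9 measured glucose targets 8 were expressed (88.9%), and 5 were above 1 TPM in every mouse (55.6%). Among protein-coding genes these shares were 44.2% and 30.1%. These 5 were *Ldha*, *Eno1*, *Pgk1*, *Hk2* and *Pfkfb4*, and *Slc16a3*, the lactate exporter MCT4, had 0 counts in all. *Slc2a1*, the glucose transporter GLUT1, had 1, 588, 1 and 209 counts in mice 1 to 4, so that mice 2 and 4 were far above mice 1 and 3. *Pdk1*, which holds pyruvate back from mitochondria, had 856, 1, 545 and 318 counts and was low in mouse 2. *Pfkfb3*, which like *Pfkfb4* sets an activator of glycolysis, had 0.737, 0, 10.2 and 2.61 TPM against 6.65 to 11.9 TPM for *Pfkfb4*. *Car9*, the carbonic anhydrase often used as a hypoxia marker, had 0 counts in every library, and *Car12* had 4666, 2, 2332 and 87 counts.

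Among vessel and hormone targets, *Angptl4* had 47.7, 261, 229 and 120 TPM in mice 1 to 4. It was lowest in mouse 1 and highest in mouse 2, as *Epas1* was, but mice 3 and 4 came in the opposite order. A relation of *Angptl4* to *Epas1* was not tested. The 4 adipocyte markers summed to 199, 962, 439 and 234 TPM, also highest in mouse 2, and their part was not tested. *Vegfa* had 7.61, 17.9, 7.35 and 3.09 TPM. *Adm*, the vasodilator adrenomedullin, had 557 counts in mouse 3 and 327 in mouse 4 and none in mice 1 and 2. *Epo*, the erythropoietin gene, had 43 counts in mouse 2 and none in the other libraries. *Edn1* had 143 counts in mouse 4 and *Ankrd37* 145 counts in mouse 3, again with none in the others. *Epo*, *Edn1*, *Ankrd37*, *Slc16a3* and *Car9* were the 5 targets not expressed by median. All 3 iron targets were expressed, among them *Hmox1*, heme oxygenase, with 42.1 TPM in mouse 3 and 0 in mouse 4. Of the 6 regulators 5 were expressed (83.3%, against 44.2% of protein-coding genes). *Bhlhe40*, a circadian repressor, led the regulators with a median of 26.0 TPM.

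**Figure D5:**
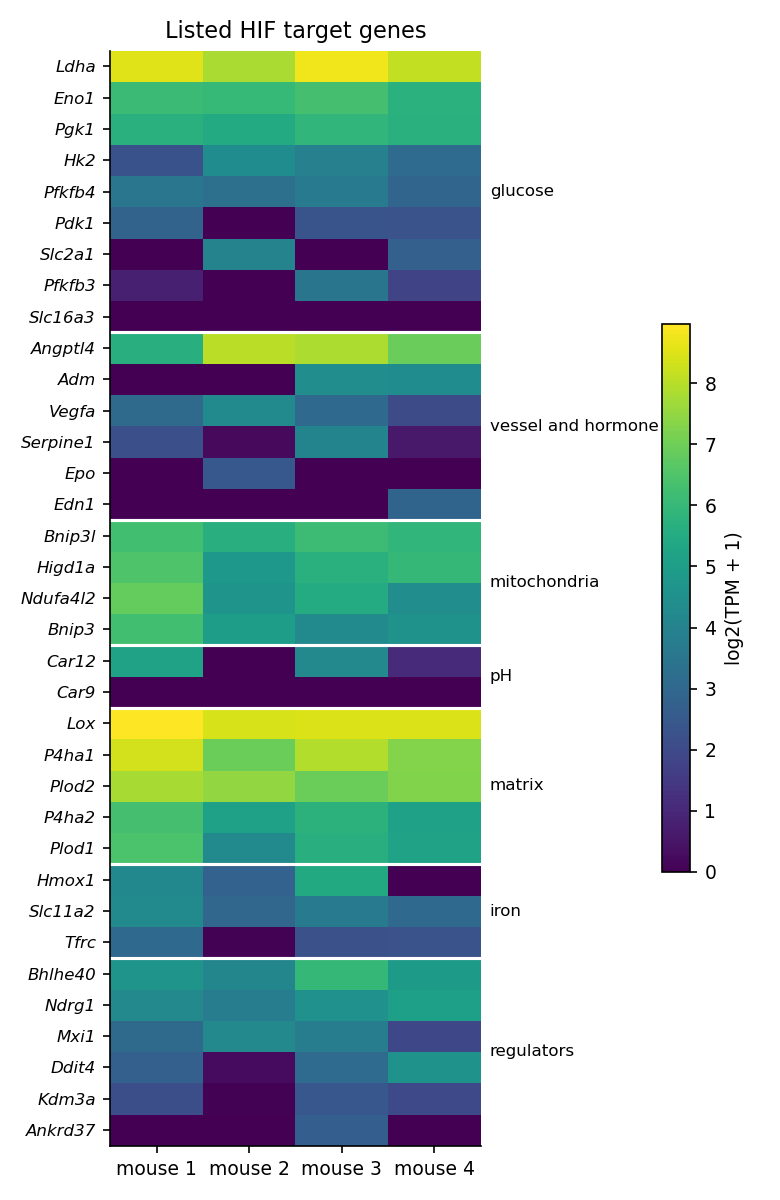
Heat map of the 35 measured HIF target genes (lines, grouped by role and ordered by median level) in the 4 mice (columns), coloured by log2(TPM + 1). Matrix and mitochondrial targets are high in every mouse and each is highest in mouse 1. *Slc2a1*, *Adm*, *Epo*, *Edn1* and *Ankrd37* are near 0 in some mice and present in others.

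Of the 5 other genes that control HIF stability all were expressed, against 44.2% of protein-coding genes. *Hsp90ab1* (799 TPM, median), *Rack1* (218 TPM) and *Hsp90aa1* (133 TPM) were above 1 TPM in every mouse. *Siah1a* and *Siah2*, ubiquitin ligases that act on the prolyl hydroxylases, were not. *Siah1a* had 1211, 35, 0 and 329 counts and *Siah2* 1, 173, 168 and 84 counts. Of 6 further oxygen-dependent enzymes all were expressed by median. Of these, 2, *P4htm* and *Kdm5a*, were above 1 TPM in every mouse, or 33.3% against 30.1% of protein-coding genes. *P4htm*, a transmembrane prolyl hydroxylase, had the highest median of the 6 at 8.07 TPM.

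Among these 9 genes, overlap of annotated exons with other genes was limited to *Hif1a* and *Egln2*. On GRCm38, *Hif1a* (ENSMUSG00000021109, chromosome 12, 73901375 to 73947530, plus strand) shares 5.60% of its exonic bases with the antisense gene *Gm15283*, which had 114, 1, 23 and 2 counts, and 2.51% with *Gm49321*, which had none. *Egln2* (ENSMUSG00000058709, chromosome 7, 27158658 to 27166802, minus strand) shares 0.393% with *Cyp2t4*, which had none. *Epas1* (ENSMUSG00000024140, chromosome 17, 86753700 to 86833410, plus strand), *Egln1* (ENSMUSG00000031987, chromosome 8, 124908587 to 124949324, minus strand) and *Vhl* (ENSMUSG00000033933, chromosome 6, 113623959 to 113631633, plus strand) share none. No near-identical stretch of another gene was found for any of the 9 except *Hif1a*, where those 2 overlapping genes cover 10.3% of the longest transcript. Counting used no strand option, and the methods name no option to assign a pair to more than 1 gene. Read pairs in the overlap of *Hif1a* and *Gm15283* may therefore be missing from the counts of both, which was not tested.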

How the data were processed

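RNA-seq libraries of 4 mice, each made from 100 sorted MSCs, were used. The authors deposited 1 table of raw counts. According to their methods and the labels, read pairs were aligned to GRCm39 with STAR 2.7.10, and uniquely mapped pairs were counted on exons with featureCounts (Subread 1.6.5), without a strand option. TPM was computed from the counts with exon lengths of GENCODE M21 (GRCm38), joined by Ensembl identifier, for 52125 of 56980 genes. A gene whose exons differ between builds has a TPM off by the ratio of lengths. Python 3.11.15, numpy 2.4.6, pandas 2.3.3 and scipy 1.17.1 were used, with edgeR 4.0.16 for TMM factors and BLAST 2.17.0 for near-identical stretches (at least 95% identity over 100 bases). The TPM code was tested on simulated data. Differences between 6 pairs of genes in log2(TPM + 1) within mice were tested by exact sign-flip permutation, paired because both genes of a pair were measured in the same library.

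The genes, lists, pairs and tests were chosen with earlier results of these data known. Named are all 9 genes, the 3 highest and lowest of each list, genes at 0, and 3 nearest profiles for 4 genes; further target genes and the niche-cell genes set beside *Epas1* were named after their values were seen. *Aldoa*, listed under more than 1 identifier, was left out of the target list. *Bmal1* and *Bmal2* were measured under their older symbols. A minimum of 3 counts was the smallest detectable value. PCR copies are not independent molecules, so limits and intervals cover counting error only. Alternatives were another length, no length, other scalings and denominators, a count filter, other cutoffs, another pseudocount, no pairing by mouse and leaving out each mouse.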

Additional observations from a re-analysis of the deposited data

Results flagged for a closer look

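One library stood apart in 14 of the 105 values that were compared over the 4 mice, where its gap to the nearest other mouse was more of the whole range than Dixon's 95% critical value for 4 samples allows. Chance flags about 1 in 20 values if they are normally distributed, which is 5.25 here. TPM values with many at 0 are not so distributed, and a gene found in 1 library alone has a gap of 1 at any level. The 5.25 is therefore only a rough reference. The values are not independent, and most of the genes concerned had no or few counts in 3 of the mice.

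Among the oxygen sensors this was *Egln3*, at 0, 0, 0.0217 and 0.218 TPM in mice 1 to 4 (gap 0.900 of the range), and likewise its share of the summed prolyl hydroxylase TPM, at 1.43% in mouse 4 and at most 0.0306% in the others (gap 0.979). Among possible partners of ARNT it was *Ahr*, with 1.78 TPM in mouse 3 (gap 0.964), *Npas3*, with 2.53 TPM in mouse 4 (gap 0.992), *Sim2*, with 1.52 TPM in mouse 1 (gap 0.928), *Ahrr*, with 1 count in mouse 2 (gap 1), and *Sim1*, with 1 count in mouse 4 (gap 1). Mouse 2 was high for *Hsp90aa1*, at 238 TPM against 118 to 136 TPM (gap 0.849), and for *Ado*, a cysteamine dioxygenase, at 8.49 TPM against 0.563 to 1.85 TPM (gap 0.838).

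Of the HIF target genes, *Epo* in mouse 2, *Edn1* in mouse 4 and *Ankrd37* in mouse 3 were found in that library alone (gap 1 for each). *Lox* was higher in mouse 1, at 497 TPM against 341 to 362 TPM (gap 0.866). The summed macrophage markers were highest in mouse 3, at 6.63 TPM, all of it from *Cd68* (gap 0.925).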

How the results depend on the processing

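The 6 differences between genes kept their direction under every alternative, and the number of expressed genes among the 9 was 6 or 7. It was 6 above 1 TPM in every mouse, with a cutoff of 5 TPM, and without mouse 1 or mouse 3, and *Hif1an* was the gene lost. The number of expressed targets, 30, was 20 in every mouse or with at least 10 counts in every mouse, 24 with a cutoff of 5 TPM and 33 with the mean over mice. Both 20s and the 24 follow from stricter rules. Between 27 and 29 targets were expressed with 1 mouse left out.

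Scaled to 1000000 counts without a length, the mean of *Hif1a* was 43.3, of *Epas1* 107, of *Arnt* 32.1, of *Egln1* 15.2 and of *Hif1an* 6.51, a unit that cannot be compared between genes. Of the means, shares and ratio these 5 values were the only ones that moved by more than the SD between mice. A pseudocount of 0.1 moved *Egln3* minus *Egln1* to -6.02 and *Egln3* minus *Egln2* to -7.46, both by more than their SD. With 1 mouse left out, *Epas1* minus *Hif1a* was between 0.71 and 1.84, *Egln2* minus *Egln1* between 0.58 and 2.19, *Arnt* minus *Hif1a* between -1.06 and -0.50 and *Hif1an* minus *Egln1* between -2.32 and -1.47. Another scaling moved the median gene of mouse 3 by up to -0.17 and of mouse 4 by up to 0.12 (log2), and a protein-coding denominator moved the median gene by 0.13. Shares within a library cannot change with either.

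Without pairing by mouse (no replicate block), *Egln3* minus *Egln1*, still -3.26, and *Egln3* minus *Egln2*, still -4.64, each had an exact permutation p of 0.0286, the smallest possible, and an adjusted p of 0.0857, and no pair passed 0.05 after adjustment. *Egln3* could not be compared once genes under 10 summed counts were removed. All mice belong to 1 group. Among the 9 genes, *Hif3a* was at 0 counts in every library and *Egln3* in 2 of 4.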
